A study of Aegilops tauschii x Triticum turgidum and Aegilops tauschii and Triticum turgidum subsp. durum with 18 samples.

Results

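In a set of 133 bright probe sets, each kept its signal within a 2-fold span over all plant arrays of the series, across ploidy and species. They carry 103 cluster numbers, explained further on, so they are not 133 distinct genes. They were selected on the measured values themselves. A probe set of the wheat array belonged to the set when its mean log2 value over the 14 plant arrays was 11 or more and when the highest and lowest of these 14 values lay no more than 1 apart, a 2-fold span. The array's control probe sets do not count. Of the 61179 other probe sets on the array, 435 reached the mean of 11, and 133 of these 435 (30.6%) also met the limit on the range. The steadiness of these probe sets across the plants is therefore given by the rule and is described here without a test. The 4 arrays of mixed parental RNA were not used by the rule, but they hold RNA of Joyau with Ae36 or Ae54, whose plant arrays the rule did use, and the labels do not say whether the extracts are the same.

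Bread wheat is an allohexaploid that carries A, B and D genomes. The A and B genomes came from a tetraploid wheat and the D genome from the diploid goat grass Aegilops tauschii, so a hexaploid plant usually holds several near-identical copies of a gene, called homoeologues. The array measures a transcript by short oligonucleotide probes, and the signal depends on how well the probes match each copy as well as on how much transcript is present. Transcripts that vary little between samples are often used in plant work as reference genes against which others are measured.

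The series holds 9 groups of 2 arrays, hybridised with RNA of untreated whole plants of 40 days. Joyau is a cultivar of the tetraploid Triticum turgidum, with biological replicates 1 and 2. Ae36 is Ae. tauschii spp. strangulata, accession 36, and Ae54 is Ae. tauschii spp. tauschii, accession 54, each with biological replicates 1 and 2. S0_36 is generation 0 of selfing of the hybrid between Joyau and Ae36 (replicates 3 and 9). S0_54 and S1_54 are generations 0 and 1 of selfing of the hybrid between Joyau and Ae54 (replicates 3 and 4, and replicates 5 and 7). These 3 groups are called the synthetics here. Courtot is a cultivar of natural hexaploid Triticum aestivum. The samples mix36 and mix54 are RNA of Joyau mixed in equal amounts with RNA of Ae36 or Ae54, each hybridised on 2 arrays. The labels do not say how many plants each RNA came from, and every sample, diploids included, carries the genotype label hexaploid. Per the labels, 20 µg of RNA was used for Ae36 and Ae54 replicate 2, and 40 µg elsewhere, Ae54 replicate 1 included. In whole plants, fewer cells of a type and less transcript per cell cannot be told apart. The arrays compare equal amounts of labelled RNA and not equal numbers of cells.

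The labels of Ae54 replicate 1 conflict: its description names accession 54, whereas its organism field names the hybrid and its extract field names the mix of accession 54 with Joyau. Its values correlated with those of Ae54 replicate 2 at r = 0.971 over the 18189 probe sets tested, a value for 2 arrays of a shared normalization. Over the same probe sets its r was 0.739 with each mix54 array, 0.728 and 0.729 with the S0_54 arrays and 0.638 and 0.675 with the S1_54 arrays. It is kept as Ae54 on its description. Of the 12 green tissue markers listed, 2 were found in the probe table. The probe set Ta.861.1.S1_at of petC, the Rieske iron-sulfur protein of the chloroplast cytochrome complex, had a mean log2 value of 13.65 (12.96 to 14.18 over the plant arrays). The probe set Ta.439.1.S1_at of FBP, fructose-bisphosphatase, had a mean of 10.19 (9.47 to 10.86). A further probe set of each gene lay low, at 2.45 for petC and 4.47 for FBP.

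Within the bright probe sets the share that was steady was larger at higher signal. It was 20.1% (54 of 268) at a mean log2 value of 11 to 12, 28.7% (27 of 94) at 12 to 13, 65.5% (38 of 58) at 13 to 14, and 93.3% (14 of 15) at 14 or more. Below the limit of 11 the share with a range of 1 or less was 5.53% at a mean of 5 to 6 and 17.6% at 10 to 11. The median range fell over the same steps from 2.44 at 5 to 6 to 0.444 at 14 or more. Whether this narrowing lies in the transcripts or in the scale of the array values at high signal was not tested. Signal differs between probe sets for reasons other than transcript amount, so the brightness of one probe set is not set against that of another.

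**Figure D1:**
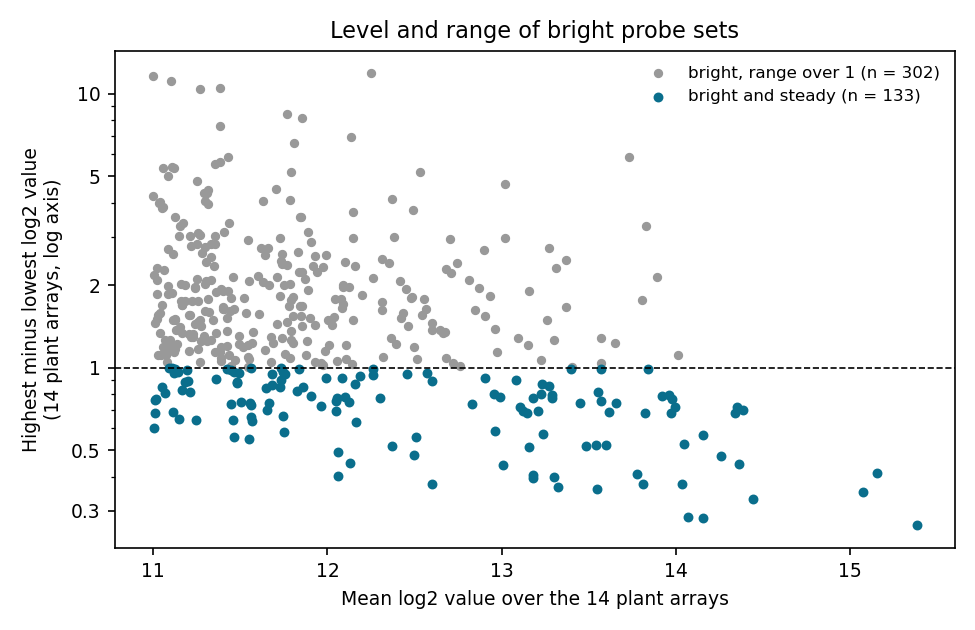
Each point is 1 of the 435 probe sets with a mean log2 value of 11 or more. The x axis is the mean over the 14 plant arrays and the y axis, on a log scale, is the highest minus the lowest log2 value. The dashed line marks the limit of 1, with the 133 steady probe sets (blue) below it and the 302 others (grey) above. The 14 steady probe sets with a mean of 14 or more lie at the right, and most grey points lie at a mean below 13.

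The range over the plant arrays ran among the 133 members from 0.266 (1.202-fold) to 0.998, with a median of 0.747 (1.68-fold). It was 0.5 or less in 22 members and above 0.9 in 28. The mean signal ran from 11.003 to 15.38 with a median of 12.26. The limits are not a natural gap in the values. Just inside the range limit lay Ta.1991.1.S1_at of LOC543250 (0.998), Ta.21959.1.S1_at (0.996) and Ta.2361.1.S1_at (0.993). Just outside lay Ta.22684.1.S1_at (1.004), Ta.24304.2.S1_a_at (1.008) and Ta.1971.1.S1_a_at (1.013). Just inside the limit on the mean lay Ta.23429.1.S1_at of LOC542966 (11.003), Ta.28434.1.S1_x_at (11.012) and Ta.2153.1.S1_s_at of LOC606338 (11.012). Just below it, with ranges under 1, lay Ta.1335.1.S1_x_at (10.96), Ta.2308.1.S1_a_at (10.95) and Ta.13231.1.S1_at of LOC778410 (10.93).

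The probe table gives a gene symbol for 29 of the 133 members (21.8%), against 50 of the 302 other bright probe sets (16.6%). These 29 probe sets carry 26 symbols. Every one is a LOC identifier, a placeholder that names a locus and not a function, so no role is given to any of them here. The 104 other members are named by their probe set alone. Members with a symbol had a median range of 0.681 and those without one 0.773.

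The narrowest member was also the brightest. Ta.24976.1.S1_x_at of LOC100049018 read 15.30 and 15.48 in Joyau, 15.35 and 15.47 in Ae36, 15.30 and 15.36 in Ae54, 15.42 and 15.41 in S0_36, 15.37 and 15.27 in S0_54, 15.54 and 15.43 in S1_54, and 15.36 and 15.32 in Courtot. S1_54 was highest, and no group stood apart from all the others. A second probe set of the same symbol, TaAffx.128414.1.A1_x_at, had a mean of 15.16 and a range of 0.41, lowest on Ae54 replicate 1 at 14.92.

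Ta.2752.3.S1_x_at, without a symbol, had a mean of 15.07 and a range of 0.352. Its lowest value was 14.88 on Courtot replicate 2 and its highest 15.23 on Ae36 replicate 2. Ta.1130.1.S1_a_at, also without a symbol, had a mean of 14.44 and a range of 0.333, and here the lowest arrays were both from Joyau. It read 14.26 and 14.25 in Joyau and between 14.40 and 14.59 on the other 12 plant arrays, so the tetraploid parent did not overlap the others although the gap was small.

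Ta.28265.1.S1_at of LOC100049048 had a mean of 14.15 and a range of 0.284. It read 14.13 and 14.26 in Joyau, 13.99 and 14.11 in Ae36, 14.22 and 14.13 in Ae54, 14.10 and 14.17 in S0_36, 14.12 and 14.17 in S0_54, 14.16 and 14.27 in S1_54, and 14.21 and 14.11 in Courtot. Ae36 replicate 1 was the lowest array, and no group stood apart from all the others. Ta.1969.1.S1_a_at, without a symbol, had a mean of 14.07 and a range of 0.285, between 13.91 on S1_54 replicate 5 and 14.19 on S0_36 replicate 9.

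LOC732707 was represented by Ta.27660.1.S1_at and Ta.27660.1.S1_x_at, with means of 14.39 and 14.35 and ranges of 0.70 and 0.72. The first read 14.69 and 14.73 in Joyau, 14.40 and 14.28 in Ae36, 14.73 and 14.52 in Ae54, 14.07 and 14.22 in S0_36, 14.28 and 14.32 in S0_54, 14.03 and 14.10 in S1_54, and 14.51 and 14.52 in Courtot. The arrays of Joyau, Ae54 and Courtot lay above those of the synthetics without overlap, and of the Ae36 arrays the first lay above the synthetics and the second among them. The second probe set covers the same sequence cluster and gave 14.62 and 14.71 in Joyau against 13.99 and 14.03 in S1_54.

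Other named members leaned towards 1 group while staying within the limit. Ta.27793.2.S1_x_at of LOC543448 (mean 13.97, range 0.68) read 13.42 and 13.67 in Ae36 and between 13.95 and 14.11 on the other 12 plant arrays. Ta.5057.3.A1_at of LOC543315 (mean 12.37, range 0.52) read 12.05 and 12.13 in Ae54 and between 12.30 and 12.57 elsewhere. In both of these probe sets, 1 diploid accession lay below every other plant array while the other accession stayed with the wheats. Further probe sets of both symbols are given below. Ta.2777.2.S1_a_at of LOC542944 (mean 12.10, range 0.78) read 11.73 and 11.67 in Ae54 and between 11.87 and 12.44 elsewhere. Ta.23429.1.S1_at of LOC542966 read 11.34 and 11.37 in Ae36 and between 10.77 and 11.17 elsewhere, so here an accession lay above every other plant array. Joyau was highest for Ta.1532.1.S1_a_at of LOC778417 (mean 13.01, range 0.44), with 13.17 and 13.23 against at most 13.15.

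Ta.1282.3.S1_x_at of LOC778422 (mean 12.26, range 0.99) read 11.84 and 11.94 in Joyau, 12.83 and 12.75 in Ae36, 12.46 and 12.44 in Ae54, 12.62 and 12.25 in S0_36, 11.86 and 12.03 in S0_54, 12.03 and 12.08 in S1_54, and 12.30 and 12.25 in Courtot. The diploids lay above Joyau without overlap. Ta.22677.1.S1_at of LOC543172 (mean 11.18, range 0.89) had the same order, with 10.99 and 10.77 in Joyau, 11.58 and 11.65 in Ae36 and 11.34 and 11.29 in Ae54. Ta.1403.1.S1_s_at of LOC543239 (mean 12.16, range 0.63) read 11.89 and 11.86 in Joyau, 12.50 and 12.44 in Ae36 and 12.35 and 12.43 in Ae54. The highest value of this probe set in the synthetics and Courtot was 12.23, below every diploid array.

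For Ta.1991.1.S1_at of LOC543250, the widest member (mean 11.74), arrays of 1 group differed about as much as the groups did. It read 11.16 and 11.88 in S0_54 and 11.29 and 12.07 in S1_54, against 12.16 and 12.01 in Joyau and 11.42 and 11.40 in Courtot. Ta.136.1.S1_at of LOC542973 (mean 12.99, range 0.78) was similar, with 12.61 and 13.20 in S1_54 and 13.10 and 12.50 in Courtot. In both members the arrays of some groups lay far apart. For LOC543250 both Joyau arrays also lay near the upper end of the range, and both Courtot arrays lay low together.

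The remaining named members follow in order of signal. Ta.1310.1.S1_x_at of LOC542949 (mean 13.82, range 0.68), Ta.85.1.S1_at of LOC543290 (13.60, 0.52), Ta.841.1.S1_a_at of LOC543291 (13.49, 0.52), Ta.23158.1.S1_at of LOC543283 (13.15, 0.68) and Ta.185.1.S1_at of LOC543200 (12.60, 0.37) lay above a mean of 12.5. Ta.659.3.S1_x_at and Ta.659.2.S1_x_at of LOC543386 had means of 12.16 and 12.12 and ranges of 0.87 and 0.75. Ta.27401.1.S1_s_at of LOC542913 had a mean of 12.05 and a range of 0.69. The dimmest named members were LOC543172, given above, Ta.12565.2.S1_at of LOC543119, Ta.2711.1.S1_x_at of LOC543219, Ta.23960.1.S1_at of LOC543361, Ta.644.1.S1_at of LOC543185, Ta.23834.1.S1_at of LOC780682, and the probe sets of LOC606338 and LOC542966 named above. Their means ran from 11.003 to 11.56 and their ranges from 0.60 to 0.89.

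**Figure D2:**
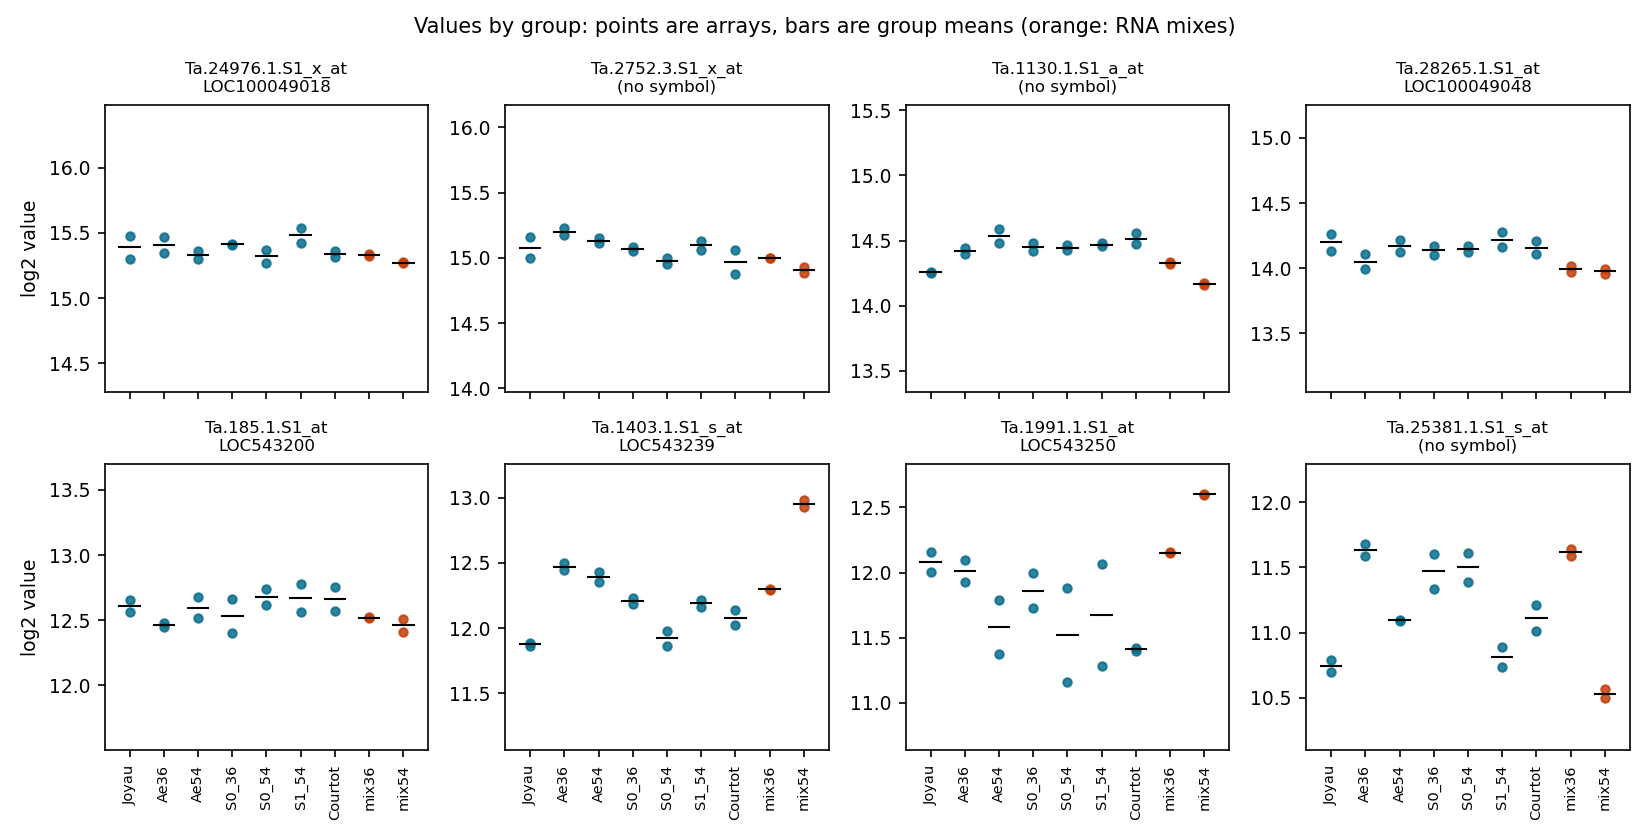
Log2 values of 8 members by group, with 1 point per array and a bar at the mean of the 2 arrays. Every panel spans about the same height on its own y axis. Plant groups are blue and RNA mixes orange. LOC100049018, LOC100049048 and LOC543200 are flat over the plants, and LOC543250 differs most between arrays of 1 group. Among the plants LOC543239 is highest in the diploids, and its mix54 arrays lie above them. For LOC543250 mix54 reads about 12.6 and for Ta.25381.1.S1_s_at about 10.5, both outside the plant values.

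Across the array 9 of the 26 symbols are paired with 39 further probe sets, of which 12 had a mean log2 value of 5 or more. TaAffx.120874.1.S1_x_at of LOC543290 had a mean of 12.35 and a range of 2.40, beside 0.52 for the member of that symbol. Ta.5057.1.S1_x_at of LOC543315 had a mean of 11.40 and a range of 1.66, and Ta.27401.1.S1_x_at of LOC542913 a mean of 10.31 and a range of 2.37. TaAffx.6140.1.S1_s_at of LOC543448 had a mean of 5.14 and a range of 4.05. It was highest on Ae36 replicate 2 at 7.36, whereas the member of that symbol was lowest in Ae36. For LOC543239, Ta.714.1.S1_s_at (mean 9.03, range 1.97) and Ta.714.1.S1_x_at (8.38, 1.60) were highest on S1_54 arrays and lowest on Courtot arrays, not highest in the diploids. LOC100049018 had the widest, TaAffx.128896.17.S1_s_at, with a mean of 7.35 and a range of 6.81, although its brightest probe set was the narrowest member. Probe sets of 1 symbol can target different stretches or copies, and which copy each one reads was not tested.

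The names of probe sets on this array carry a cluster number, shared by probe sets designed from 1 group of similar transcripts. The 133 members carry 103 cluster numbers. In 19 clusters more than 1 member was found, 49 members in all, so members are not independent of each other. Ta.20639 and Ta.659 held 5 each. Suffixes that mark probes shared between transcripts were common: 39.8% of members end in x_at, 21.1% in a_at and 8.27% in s_at, against 11.1%, 5.43% and 4.31% of all probe sets. Among the other bright probe sets these shares were 37.7%, 14.9% and 9.93%, so x_at and s_at were about as common there.

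Of the 103 clusters, 53 have no probe set other than members, and 44 of these 53 have a single probe set. The 50 others contain 178 further probe sets, 33 of them bright in 20 clusters. A bright probe set that is no member has a range over 1 by the rule. The ranges of these 33 ran from 1.01 to 8.15 with a median of 1.85, beside 1.75 over all 302 other bright probe sets. The range was over 2 in 15 of them, in 12 clusters, and over 4 in 6. At a mean of 8 to 11, 9 of 51 such probe sets (17.6%) had a range of 1 or less, against 443 of 2947 (15.03%) in other clusters. At a mean of 5 to 8 it was 1 of 19 (5.26%) against 7.03%. These shares are near each other.

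The 6 clusters whose further bright probe sets varied most show steady and varying probe sets side by side. They were picked after the values were seen. In Ta.659, 7 of 8 probe sets were bright and 5 were members. The bright probe set Ta.659.6.S1_x_at read 8.14 and 7.19 in Ae54, 11.78 and 11.62 in Joyau and 12.18 and 12.13 in Ae36, and it stayed between 11.22 and 11.97 in the hexaploids. Only the diploid accession 54 was low there, while the 5 members of the cluster stayed between 11.17 and 12.68 on all plant arrays.

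In Ta.1971, the member Ta.1971.1.S1_x_at (range 0.73) read 11.05 to 11.78, while Ta.1971.2.S1_x_at read 12.44 and 12.48 in Joyau, 8.41 and 8.67 in Ae36, 10.25 and 9.74 in Ae54 and 11.71 to 12.23 in the hexaploids. In Ta.28363, the member Ta.28363.2.S1_a_at (range 0.53) read 13.79 to 14.31, while Ta.28363.3.S1_x_at read 13.57 and 13.50 in Joyau, 9.43 and 10.62 in Ae36, 11.51 and 10.07 in Ae54, 12.96 to 13.54 in the synthetics and 12.30 and 11.81 in Courtot. In both the diploids were low where the member was steady.

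In Ta.1282, the cluster of LOC778422, Ta.1282.2.S1_x_at of LOC100037539 read 13.49 and 13.51 in Joyau, 5.61 and 6.22 in Ae36 and 10.19 and 9.42 in Ae54. The hexaploids read 13.31 to 13.76, at the level of Joyau. In Ta.2752, whose members Ta.2752.3.S1_x_at and Ta.2752.2.S1_x_at had ranges of 0.352 and 0.44, Ta.2752.1.S1_x_at read 13.06 and 13.49 in Joyau, 9.94 and 10.19 in Ae36, 9.95 and 9.98 in Ae54, 12.66 to 13.04 in the synthetics and 11.13 and 10.88 in Courtot. The natural hexaploid lay nearer to the diploids than the synthetics did.

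Ta.27457 held probe sets of opposite direction. Ta.27457.3.S1_x_at read 9.25 and 9.95 in Joyau and 13.82 to 13.92 in the diploids. Ta.27457.7.S1_x_at read 13.81 and 13.86 in Joyau and 8.87 to 10.09 in the diploids. Both read 13.25 to 14.04 in the synthetics and Courtot. The member of this cluster, Ta.27457.4.S1_x_at, read 10.89 and 10.92 in Joyau, 11.15 to 11.43 in the diploids and 10.93 to 11.70 in the hexaploids.

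**Figure D3:**
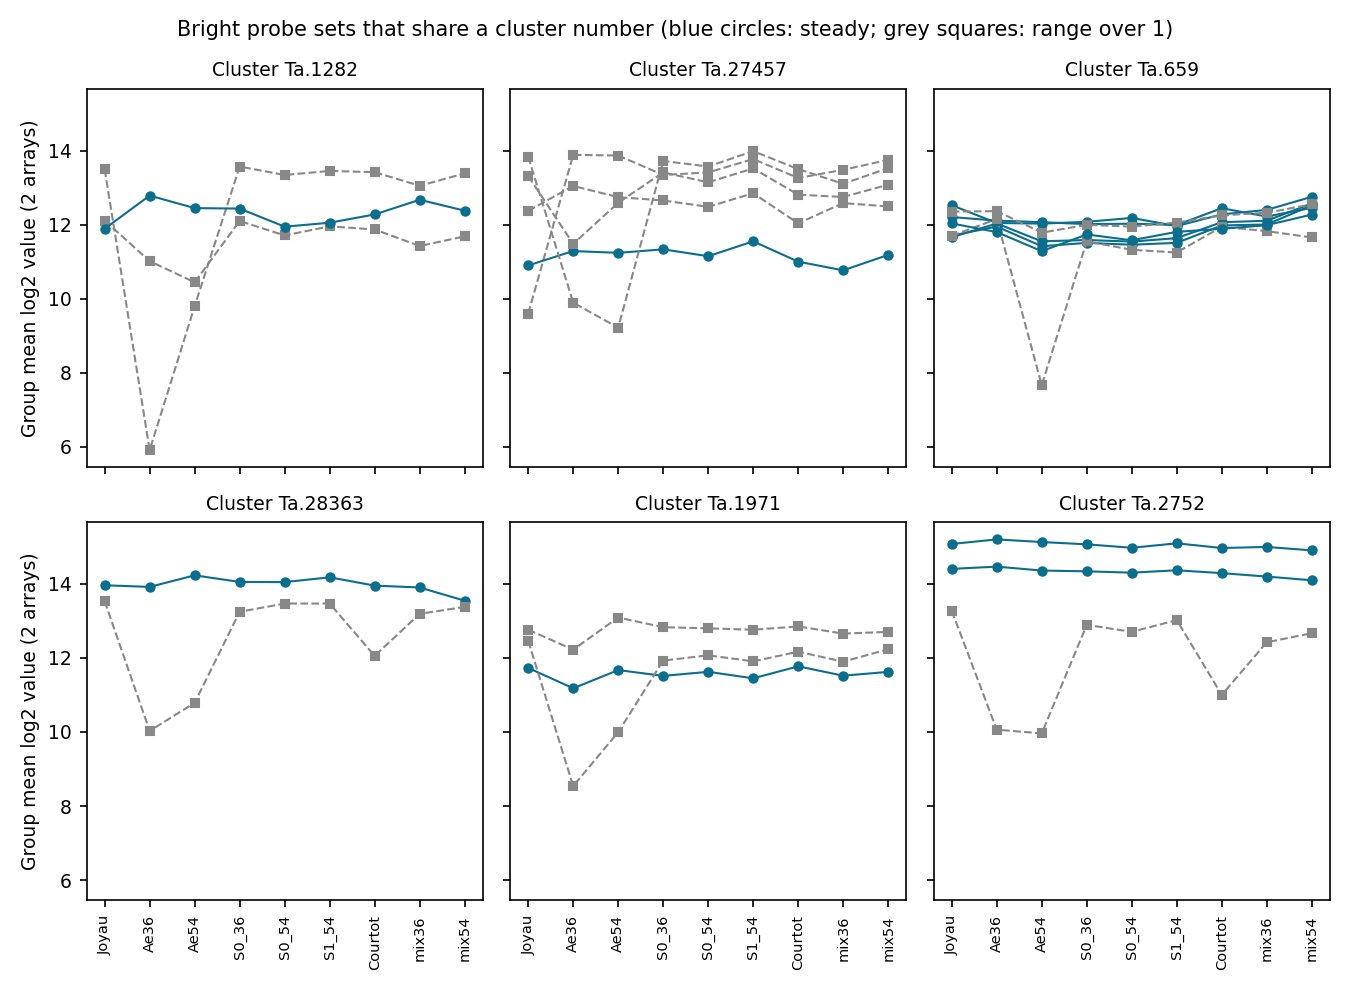
Group means (2 arrays each) of the log2 values of all bright probe sets in 6 clusters, with the groups along the x axis. Blue circles are steady members and grey squares bright probe sets with a range over 1, and the lines only join points of 1 probe set. The members span little of the shared y axis, although Ta.1282.3.S1_x_at runs from 11.89 in Joyau to 12.79 in Ae36. The member Ta.659.1.S1_x_at runs from 11.42 in Ae54 to 12.52 in mix54. Among the grey squares, Ta.659.6.S1_x_at drops to 7.67 in Ae54 and Ta.1282.2.S1_x_at to 5.91 in Ae36. In addition, 2 probe sets of Ta.27457 lie low in opposite parents.

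Within the limit of the rule, the spread within and between groups is described here without a test. The median SD between arrays of a group was 0.144 and the median SD between the 7 group means 0.191, with the second above the first in 81 of 133 members. For the other bright probe sets these medians were 0.239 and 0.481, and the second exceeded the first in 265 of 302. The SDs are unlike measures, since a group mean averages its arrays and so varies less than a single array. Both come from the arrays that the rule used. How often the second would exceed the first without group differences was not computed, so no group difference is read from this. The group means of a member spanned a median of 0.516. S1_54 was most often at an end, with the highest mean for 27 members and the lowest for 33. Ae36 followed with 23 and 28 and Ae54 with 26 and 20, whereas S0_36 was highest for 6 and lowest for 10. The same counts were not made for other probe sets, so they are not read as a trait of the members.

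Single arrays moved with these counts. S1_54 replicate 5 alone was the lowest array for 25 members and the highest for 15, where an even share is 9.5. Its median deviation was -0.05 over the members and -0.18 over all 18189 tested probe sets, the lowest of the 14 plant arrays in both. The rule gave 143 probe sets without that array and 152 without Ae36 replicate 1, the largest change for any one array, and between 133 and 141 without any other. A left-out array cannot widen a range, so these counts could fall only through the mean. The SD of the difference between replicate arrays over the members ran from 0.141 in Joyau to 0.271 in Ae36, and was 0.255 in S1_54.

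**Figure D4:**
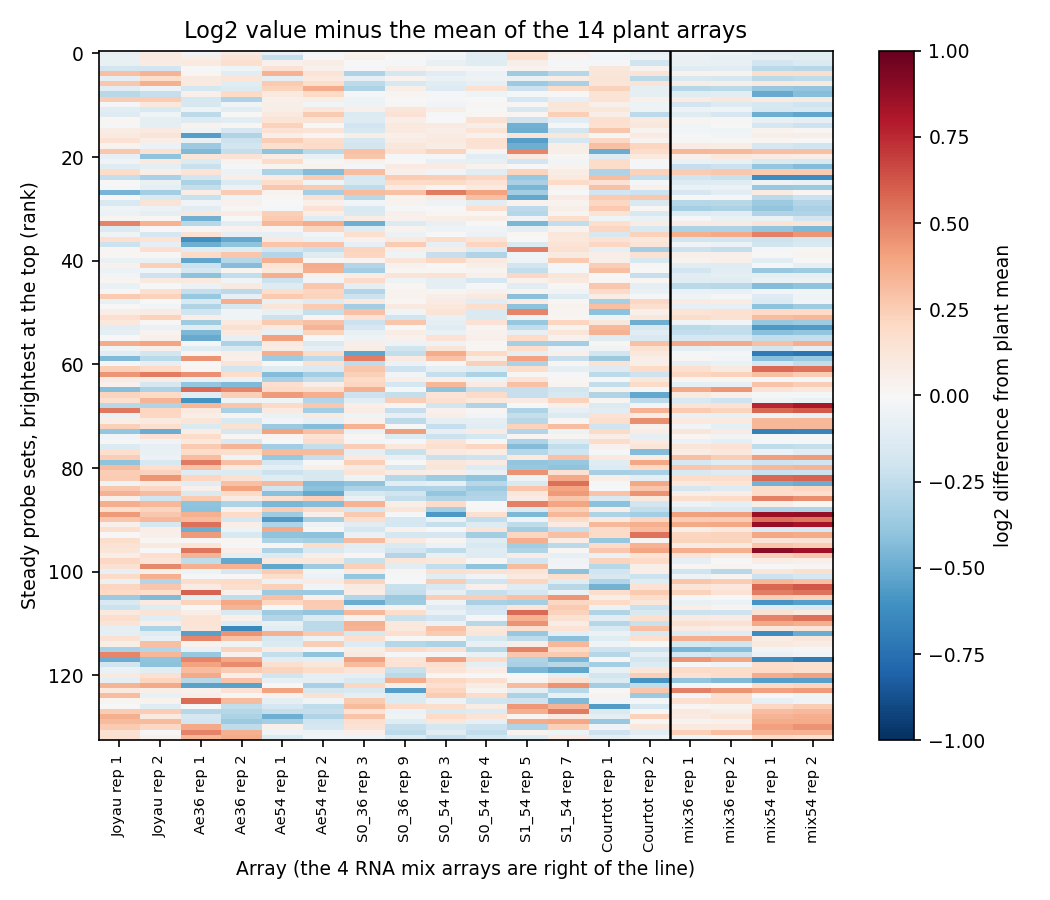
Each line across is 1 of the 133 members, ordered from the brightest at the top, and each column 1 array. The colour is the log2 value minus the member's mean over the 14 plant arrays. The top lines are palest, S1_54 replicate 5 and Ae36 replicate 1 show more blue and red than most plant arrays, and the mix54 arrays right of the line show the strongest colours.

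The array's own wheat ubiquitin controls, which the rule leaves out, stand beside the members. Ubiquitin is the small protein that marks others for breakdown and is a usual reference gene in plants. AFFX-Ta_Ubiquitin_5_at had a mean of 12.90 and a range of 0.72, with 13.30 and 13.25 in Joyau and the lowest value, 12.59, on S1_54 replicate 5. AFFX-Ta_Ubiquitin_M_at had a mean of 11.06 and a range of 0.75. Spiked controls, which are added to every sample and carry no wheat biology, spread more. The bright bioD spikes had ranges of 2.19 to 3.00 and the bright cre spikes 0.93 to 1.69, each highest on Ae36 replicate 2 and lowest on Courtot replicate 2. The members' median deviation on those arrays was 0.0068 and 0.033. The rule held each member within 1 on these arrays, and a median over members is not a range of 1 probe set. The members are therefore not compared with the spikes.

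The 6 comparisons between plant groups used the arrays that the rule used. Their counts describe how much difference a range of 1 leaves room for, and nothing is read from them. A probe set was called at a Benjamini-Hochberg adjusted p under 0.05 in 1 limma fit over all 18189 tested probe sets, and all 133 members were among those tested. Between Joyau and the mean of both diploids 20 members were called (13 higher and 7 lower in Joyau), where 62.8% of all tested probe sets were called. Between Ae36 and Ae54 it was 6 members, with 18.3% of all called. Between the synthetics and Joyau it was 9 members, with 40.8% of all, and between the synthetics and the diploids 25 members, with 65.1% of all. Between S1_54 and S0_54 it was 1 member, with 9.14% of all, and between Courtot and the synthetics 5 members, with 26.4% of all. Several counts rest on 1 array. Without Joyau replicate 1 or 2 the first count was 6 or 7 and the third 0 or 1. Without Ae36 replicate 1, Ae54 replicate 1 or Ae54 replicate 2 the second was 1, 0 or 0 (19.2%, 12.8% or 13.4%). The fourth was 11 or 14 without Ae54 replicate 1 or 2 (59.7% or 60.2%). It was 14 or 13 without S0_54 replicate 3 or 4 (60.9% each), and 15 without S1_54 replicate 5 (61.3%). The fifth was 0 without any 1 of its 4 arrays, where 0.528% to 6.73% of all were called. The sixth was 1 or 3 without S0_36 replicate 3 or 9, 1 or 3 without S0_54 replicate 3 or 4, 3 without S1_54 replicate 5, and 0 or 2 without Courtot replicate 1 or 2.

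The members' log2 differences in these comparisons were small by construction. The median size was 0.162 between Joyau and the diploids (1.02 for all tested probe sets), 0.222 between Ae36 and Ae54 (0.403), 0.148 between the synthetics and Joyau (0.537), 0.127 between the synthetics and the diploids (0.752), 0.207 between S1_54 and S0_54 (0.390) and 0.157 between Courtot and the synthetics (0.414). Over all tested probe sets the median difference itself was -0.22 for S1_54 minus S0_54 and under 0.1 in size in the other 5, while the members' median there was 0.02. Several of these comparisons share groups, so they are not independent of each other.

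The members at either end of each comparison are given with their values. Joyau lay above the diploids most in Ta.2696.1.S1_a_at, by 0.75, with 12.11 and 12.08 in Joyau against 11.29 to 11.44 on the 4 diploid arrays. It lay below them most in LOC778422, by a difference of -0.73. Ta.2696.1.S1_a_at was also the member in which the synthetics (11.74 to 12.25) lay furthest above the diploids, by 0.65, and Courtot, with 11.34 and 11.56, stayed near the diploids.

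Ae36 lay furthest above Ae54 in Ta.2361.1.S1_at, by 0.79 (11.92 and 11.91 against 11.05 and 11.20). It lay furthest below in Ta.347.2.S1_a_at, with a difference of -0.73 (12.80 and 12.89 against 13.57 and 13.58). In both the arrays of the accessions did not overlap.

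The synthetics lay furthest below Joyau in Ta.20429.2.S1_at, with a difference of -0.66 (12.91 to 13.40 against 13.90 and 13.74). They lay furthest above Joyau in Ta.28750.1.S1_x_at, by 0.60, although the S1_54 arrays, 13.22 and 13.57, reached down to Joyau at 13.10 and 13.23. They lay furthest below the diploids in Ta.21213.1.S1_a_at, with a difference of -0.49 (10.98 to 11.68 against 11.69 to 11.86).

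Between the selfed generations, S1_54 lay above S0_54 most in Ta.2739.1.S1_x_at, by 0.67 (12.10 and 12.22 against 11.53 and 11.47). It lay below most in Ta.25381.1.S1_s_at, with a difference of -0.69 (10.89 and 10.74 against 11.61 and 11.39). Courtot lay below the synthetics most in Ta.13180.1.S1_a_at, with a difference of -0.62 (10.54 and 10.92 against 11.17 to 11.53), and above them most in Ta.659.1.S1_x_at, by 0.49 (11.92 and 12.05 against 11.35 to 11.67).

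The RNA mixes were set beside the plants. With all 18 arrays counted, the range stayed at 1 or less in 121 of 133 members (91.0%) and passed 1 in 12. The rule already held both parents of each mix within 1, so this count follows in part from the choice of members. Of 452 probe sets with a range of 1 or less over the plants and a mean of 8 to 11, bounds chosen after the values were seen, 398 (88.1%) also stayed within 1. The widest member was LOC543250, at 1.44, where the mix54 arrays read 12.59 and 12.60. A physical mix of equal RNA amounts can be set against its mid-parent, computed here as the log2 of the mean of both parents' linear group values. For mix36 the members differed from the mid-parent by a median of -0.010 (SD over members 0.167), between -0.45 and 0.40, and none by more than 0.5. For mix54 the median was -0.050 (SD 0.361), between -0.79 and 0.97, and 21 members (15.8%) differed by more than 0.5. Over all tested probe sets, 19.3% differed by more than 0.5 in mix36 and 31.3% in mix54. Over the other bright ones these shares were 10.3% and 37.7%. The median size of the deviation was 0.104 for mix36 and 0.264 for mix54, against 0.241 and 0.312 over all tested probe sets and 0.164 and 0.392 over the other bright ones. After each array was centred on its median, the members' values were 0.184 for mix36 and 0.294 for mix54. Without Ae54 replicate 1, the array with conflicting labels, or without replicate 2, the value for mix54 lay between 0.260 and 0.273.

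The arrays of mix54 also left the plants' band more often than those of mix36. Both arrays of a mix lay above or below all 14 plant arrays for 9 members in mix36 (6.77%, 3 above and 6 below) and for 36 in mix54 (27.1%, 18 above and 18 below). Over all tested probe sets the shares were 2.36% for mix36 and 6.36% for mix54. Both arrays lay outside the 4 arrays of the mix's own parents for 32 members in mix36 (24.1%, background 12.4%) and for 85 in mix54 (63.9%, background 22.4%). The rule kept the plants' values close together, so a smaller shift carries a member past them than carries other probe sets past theirs, and these shares do not compare the size of shifts. Both mixes are set against the same Joyau and plant arrays.

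The direction in mix54 differed with signal. Of the 52 members with a mean of 13 or more, 43 lay below the mid-parent in mix54, with a median of -0.19. Of the 81 dimmer members, 49 lay above it, with a median of 0.14. In mix36 these medians were -0.030 and -0.0016. The split at 13 was chosen after the values were seen and is a description. Other probe sets at these levels were not counted in this way, so the direction is not read as a trait of the members.

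**Figure D5:**
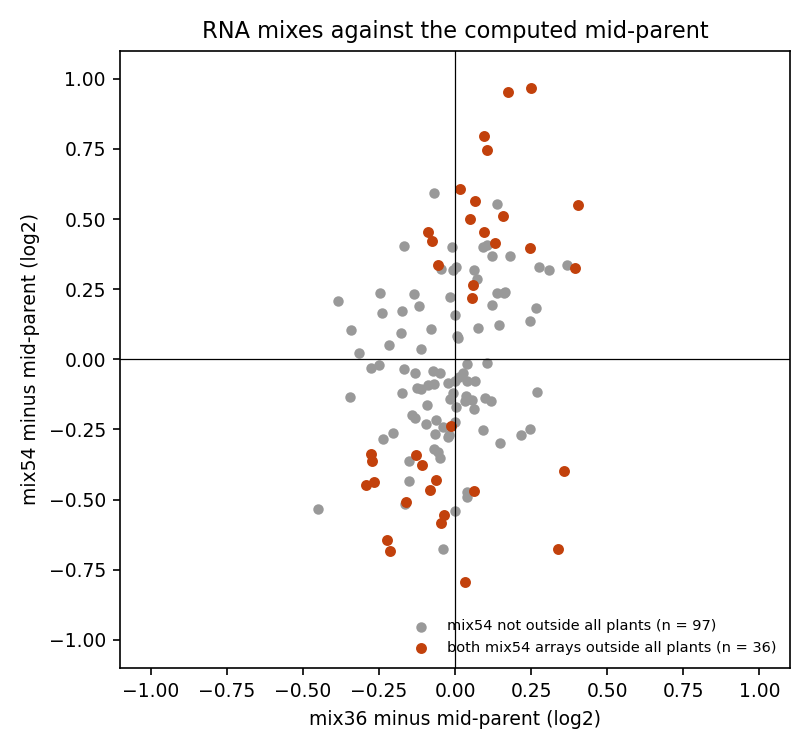
Each point is 1 of the 133 members, with the log2 difference from the mid-parent in mix36 on the x axis and in mix54 on the y axis, on equal scales. Each axis value is the mean of 2 arrays minus the mid-parent. Orange marks the 36 members whose mix54 arrays both lay outside all 14 plant arrays. The cloud is tall and narrow: no member passes 0.5 on the x axis and 21 (15.8%) do on the y axis. Over all tested probe sets, which are not drawn, 19.3% pass 0.5 in mix36 and 31.3% in mix54.

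The members furthest from the mid-parent in mix54, named after their values were seen, came partly from 1 cluster. Ta.659.1.S1_at read 12.60 and 12.55 in mix54, against 11.77 and 11.55 in Joyau and 11.42 and 11.68 in Ae54, a deviation of 0.97. Ta.659.1.S1_x_at deviated by 0.95, and Ta.659.7.A1_x_at by 0.57. In mix36 the same 3 probe sets deviated by 0.25, 0.17 and 0.07. LOC543239 read 12.93 and 12.98 in mix54 and deviated by 0.80, and LOC543250 deviated by 0.74. On the low side Ta.12118.1.S1_a_at read 11.90 and 11.87 in mix54, against 12.49 and 12.42 in Joyau and 12.96 and 12.78 in Ae54, a deviation of -0.79. In each of these members both mix54 arrays lay above, or both below, all 4 arrays of the parents.

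Among the narrowest and brightest members the mixes differed in place. The narrowest, Ta.24976.1.S1_x_at of LOC100049018, read 15.34 and 15.32 in mix36 and 15.27 and 15.28 in mix54. LOC100049048 read 13.97 and 14.02 in mix36 and 13.996 and 13.956 in mix54, at the lower edge of its plant values. Ta.1130.1.S1_a_at read 14.32 and 14.33 in mix36 and 14.17 and 14.16 in mix54, the second pair below every plant array. The next were named after their values were seen. Ta.22831.1.S1_at (range 0.36) read 13.26 and 13.27 in mix36 and 13.18 and 13.25 in mix54, all below its lowest plant value of 13.40. Ta.1342.2.S1_x_at (range 0.40) lay above every plant array in both mixes, with deviations of 0.40 and 0.55. Ta.2402.1.S1_a_at, among the 10 brightest, read 13.96 and 13.95 in mix54, below every plant array, a deviation of -0.51.

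The mixes were tested against each other, with the 2 arrays of each mix averaged to 1 sample, since they differed by an SD of only 0.036 and 0.040 over the members. None of the 133 members was called in mix36 minus mix54 by limma at an adjusted p under 0.05, where 2.72% of all tested probe sets were called. At an unadjusted p under 0.05 there were 4, and the smallest adjusted p was 0.0619. With 1 sample a mix, the spread comes from the plant groups, and the rule kept that spread small for the members. Their SEs, intervals and p-values therefore draw on values that the rule used. The 95% interval of the difference held 0 for 129 members and had a median width of 1.23. These 129 are not shown to be alike in the mixes. With the mix arrays counted as separate samples 4 members were called, with no filter 2 and with array weights 1. The difference was 0.25 or less in size for 94 members, with a median size of 0.159 (0.325 for all tested probe sets).

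Of these 4, Ta.25381.1.S1_s_at read 11.64 and 11.59 in mix36 and 10.56 and 10.50 in mix54. The log2 difference was 1.08 (SE 0.26, 95% interval 0.50 to 1.66, limma adjusted p = 0.0619), and the adjusted p lay between 0.000473 and 0.0929 under the other settings. The difference follows the parents' order, since Ae36 read 11.68 and 11.58 and Ae54 11.09 on both arrays, but mix54 lay below Joyau too, at 10.70 and 10.79. Ta.347.3.S1_x_at read 12.21 and 12.17 in mix36 against 11.41 and 11.42 in mix54, although Ae54 (12.49 and 12.38) lay above Ae36 (12.16 and 11.91). Its difference was 0.77 with a limma adjusted p of 0.349. Ta.12118.1.S1_a_at differed by 0.70 (limma adjusted p = 0.348). LOC543239 was higher in mix54, with a difference of -0.65 (SE 0.23, limma adjusted p = 0.267).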

How the data were processed

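The deposited table holds log2 values for 61290 probe sets on 18 arrays of the Affymetrix GeneChip Wheat Genome, made by the authors with GCRMA (per the submitters' processing notes), a method that models background from probe sequence, aligns the arrays' distributions and combines probes into 1 value. No source used here gives its version or settings. Array control probe sets were set aside. Groups come from the sample labels, which describe the plant arrays as biological replicates and the mix arrays as replicates without saying more.

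The 18189 probe sets that reached log2 5 on 2 arrays or more were tested. A model with 9 group means was fitted with limma 3.58.1 in R 4.3.3 over 16 samples, the arrays of each mix averaged, with 7 residual and 3.44 prior degrees of freedom, two-sided, Benjamini-Hochberg adjusted over all tested probe sets. The number of arrays limits the precision. The fit was tested on simulated data. Members, lists and tests were chosen with earlier results of these data known.

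Named were all members with 1 gene symbol, the 5 brightest, the 5 narrowest and the 3 nearest each side of each limit. The largest rise and fall in each plant comparison were also named. No member was called between the mixes, and the 4 with an unadjusted limma p under 0.05 there were named. Other names are stated as chosen after their values were seen. Symbols come from a probe table that gives 1 symbol to 1273 probe sets and none to 60017. Replicate numbers were checked as pairs: same-numbered arrays correlated in their deviations from the group means at r of -0.056 to 0.228, so the numbers were not taken as pairs. Alternatives were another normalization, centring, filter, array weights, separate mix arrays, other limits of the rule, left-out arrays and a replicate block. No sequence is shown.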

Additional observations from a re-analysis of the deposited data

Results flagged for a closer look

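In 5 of the 12 members whose range passed 1 once the mixes were added, both arrays of mix36 lay on one side of their mid-parent and both arrays of mix54 on the other. These 12 were picked through the mix values, and over all 133 members 41 (30.8%) had such opposite sides, so nothing is read from the count of 5. The difference between the deviations was not tested, and both mid-parents share the Joyau arrays. It is given as the deviation of mix36 less that of mix54, on the log2 scale. It was 1.015 for Ta.347.3.S1_x_at, where mix36 deviated by 0.34 and mix54 by -0.68. It was 0.827 for Ta.12118.1.S1_a_at (0.03 and -0.79), 0.756 for Ta.25381.1.S1_s_at (0.36 and -0.40), and 0.531 for TaAffx.53659.1.S1_s_at (0.06 and -0.47). It was -0.496 for Ta.2711.1.S1_x_at of LOC543219 (-0.07 and 0.42). In Ta.12118.1.S1_a_at, TaAffx.53659.1.S1_s_at and Ta.2711.1.S1_x_at the deviation of mix36 was under 0.1 in size.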

How the results depend on the processing

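The rule's own limits set the number of members. It was 85 with a range limit of 0.8, 223 with a mean limit of 10, 79 with a mean limit of 12 and 204 when the range was taken between group means. It was 133 to 152 with 1 array left out, where a range cannot widen and the count could fall only through the mean. It was 136 after quantile normalization (126 of the 133 shared) and 116 after median centring (104 shared, 29 lost). Counts of members called moved most. With 1 array left out, the share of all tested probe sets called was also lower in the plant comparisons, with these exceptions. It was higher without Ae36 replicate 2 for Joyau minus the diploids, and without Ae36 replicate 1 for Ae36 minus Ae54. Lower counts with 1 array left out are therefore not read as specific to the members. For Joyau minus the diploids (20) the count was 11 with only the groups compared, 8 with a replicate block and 6 to 22 with 1 array left out. For Ae36 minus Ae54 (6) it was 22 with separate mix arrays, 13 with no filter, 0 with array weights, with only the groups compared or with the replicate block, and 0 to 6 with 1 array left out. For the synthetics minus Joyau (9) it was 17 with separate mix arrays, 15 with no filter and 0 to 11 with 1 array left out, and for the synthetics minus the diploids (25) 11 to 22 with 1 array left out. For S1_54 minus S0_54 (1) it was 9 with separate mix arrays, 4 with median centring, 5 with no filter, 9 with array weights, 0 with only the groups compared and 0 with any 1 array left out. For Courtot minus the synthetics (5) it was 14 with separate mix arrays, 9 with no filter and 0 to 5 with 1 array left out. For mix36 minus mix54 (0) it was 4 with separate mix arrays, 2 with no filter, 1 with array weights, 65 with the replicate block and 0 with any 1 array left out. Over all tested probe sets, the settings other than no filter and left-out arrays called 56.4% to 67.3% for Joyau minus the diploids, 5.81% to 24.8% for Ae36 minus Ae54, 40.8% to 47.4% for the synthetics minus Joyau, 61.6% to 69.6% for the synthetics minus the diploids, 3.38% to 20.4% for S1_54 minus S0_54 and 25.1% to 35.2% for Courtot minus the synthetics. For the mixes it was 66.6% (12120) with the replicate block, which called 48.9% of members, and 2.72% to 11.4% otherwise. With no filter, dim probe sets were tested too. Members were then called more often than all for Ae36 minus Ae54 (9.774% against 5.901%) and S1_54 minus S0_54 (3.759% against 2.115%). The same held for the mixes (1.504% against 0.852%). Members were called less often for Joyau minus the diploids (20.3% against 22.6%) and Courtot minus the synthetics (6.77% against 7.19%). So they were for the synthetics minus Joyau (11.3% against 12.5%) and minus the diploids (22.6% against 31.6%). The mix arrays were nearly identical, so the replicate block and separate arrays take their small spread as that of samples. A fit with only the groups compared could not be made for the mixes, which then leave no residual degrees of freedom. The other causes were not tested. The median size of the deviation of mix36 from the mid-parent was 0.184 (0.104 before) after median centring, an alternative added after the data were seen. The 121 of 133 members within the range over all 18 arrays were 115 after quantile normalization and 91 after median centring. The 36 members outside all plants in mix54 were 37 and 39. The number of arrays limits the precision.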
